A study of Homo sapiens with 4 samples.

Results

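The genes described here were 50 genes of the extracellular matrix, in ES2 cells, an established human ovarian cancer (OCa) line. They were chosen by symbol, with earlier results of these data known. They comprised 13 collagen chains, 11 proteoglycans, 18 matrix glycoproteins, 5 matrix proteases and 3 tissue inhibitors of metalloproteinases (TIMPs). All 50 symbols were present among the 23228 gene symbols that were counted. Of these 50 genes, 42 had enough counts to be tested, as did 12706 genes overall. The remaining 8 genes were COL3A1, LUM, FBLN1 and FBLN5, with 0 counts in every library, and COL1A2, DCN, POSTN and NID2, with between 0 and 9 counts per library. A count of 0 allowed a level of up to 0.0266 CPM, which is 3 counts in the 112798721 counts of all 4 libraries and covers counting error only.

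The extracellular matrix is the secreted scaffold around cells. Fibrillar collagens give it tensile strength, and type IV collagen, laminins, nidogens and the proteoglycan perlecan form the sheet called the basement membrane. Proteoglycans carry long sulfated sugar chains that hold water and growth factors. Matricellular proteins such as thrombospondins and tenascins are secreted into the matrix and act on cells rather than bear load. Matrix metalloproteinases (MMPs) and ADAMTS proteases cut these proteins, and TIMPs bind and block the proteases. In OCa, matrix produced by tumor cells and by their stroma is known to accompany spread on the peritoneum.

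Cells were treated for 12 h with 10 nM of EC359, a small-molecule inhibitor of the receptor for leukemia inhibitory factor (LIFR), or with vehicle, which was DMSO at 0.1%. Each treatment had 2 libraries of polyadenylated RNA, made with a strand-marking kit from cells grown in serum-containing medium. The comparison asks which genes respond to EC359 treatment. It covers 1 cell line at 1 dose and 1 time, and the labels do not say whether the libraries of a treatment came from separate cultures, so p-values measure only the spread between these libraries. Reads counted on genes ranged from 25572494 to 31707553 per library. Normalized counts below are counts scaled with TMM factors to a common library size, and levels compared between genes are RPKM, reads per kilobase of transcript scaled to the depth of the library. Fewer cells and less RNA per cell cannot be told apart in bulk RNA. A gene was called where its p from the quasi-likelihood test of edgeR, adjusted over all 12706 tested genes by the Benjamini-Hochberg method, was under 0.01. Unless a setting is named, edgeR results come from all 4 libraries with TMM factors, without a replicate block or a length or GC correction.

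The identity of the line was checked on marker genes. KRT7 and KRT18, keratins of simple epithelia, ranged from 7423 to 8124 and from 7006 to 7759 normalized counts. Of 11 epithelial and ovarian carcinoma markers, 5 had fewer than 10 raw counts in every library. Among them were EPCAM and CDH1, the adhesion proteins of epithelial cells, and MUC16, the CA125 antigen. PAX8, a transcription factor of Müllerian epithelium, ranged only from 26.7 to 38.3 normalized counts. VIM, the intermediate filament of mesenchymal cells, was among the most abundant messages, with 150994 and 157709.5 normalized counts in the vehicle libraries and 135415 and 139151 in the EC359 libraries (replicate 1 before replicate 2 here and below). Its log2 fold change was -0.17 (adjusted p = 0.0135). The summed level of the 7 mesenchymal markers was 159616 to 166340 in vehicle and 143949 to 147496 in EC359, a sum carried by VIM. The list did not move as VIM did: of its 6 tested genes, 4 had positive and 2 negative log2 fold changes, with a median of 0.062. The 11 epithelial markers summed to 15167 to 16367 in vehicle and 16532 to 16621 in EC359, and the 6 that were tested had positive log2 fold changes of 0.054 to 0.52, none past either threshold. Of 8 leukocyte markers, 7 were under 10 raw counts in every library, and 3 of 5 endothelial markers were as well. The leukocyte list summed to 2562 to 2726 in vehicle and 2531 to 2583 in EC359, carried by CD68, and the endothelial list to 3514 to 3738 and 3508 to 3600, carried by CDH5. The part of these marker levels in the matrix genes was not tested.

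The matrix genes moved in both directions with EC359. BGN, THBS1, TIMP2 and TIMP3 rose, and TNC fell. These 5 genes were 11.9% of the 42 tested matrix genes, whereas 1.09% of all tested genes were called. Since the genes were chosen with earlier results of these data known, such shares describe the list and do not test for an excess. For the upward direction, 4 of 42 stood beside 0.299% of all genes, and for the downward direction, 1 of 42 stood beside 0.795%. At the looser threshold of an adjusted p under 0.05, MMP3 was also higher and ADAMTS1 was also lower, which made 16.7% of the matrix genes against 4.32% of all genes. An unadjusted p under 0.05 was found in 17 of 42 (13 higher, 4 lower), against 21.6% of all genes. DESeq2 and limma voom called the same 5 genes and no other matrix gene, although DESeq2 gave no adjusted p for 8 of the 42. The changes were small. Log2 fold changes of the 42 genes ran from -0.25 to 0.71, with a median of 0.072 against 0.0029 over all tested genes, and 28 were positive and 14 negative, where 51% of all genes were positive. The median was 0.01 without vehicle replicate 1, 0.12 without EC359 replicate 1 and 0.012 with each library's GC trend removed. Both EC359 libraries lay above both vehicle libraries in 17 matrix genes and below them in 5, and the groups overlapped in 20. The share without overlap, 52.4%, was near the 51.5% of all tested genes. By direction, 40.5% of the matrix genes lay apart upward, against 26.1% of all genes. Matrix genes were more abundant than most genes, with a median of 3181 normalized counts against 890.1, and among genes with a mean of at least 1000 normalized counts the called share was 2.09%. Of the matrix genes, 28 reached that mean, and 4 of these were called. The number of calls rested on both EC359 libraries: without EC359 replicate 1 no matrix gene was called by edgeR and 12 had an unadjusted p under 0.05, and without EC359 replicate 2 none was called and 8 had such a p. Over all genes, 0 and 2 were then called, and the looser threshold added none. With either vehicle library left out, the same 5 genes were called among 8 and 7 matrix genes.

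**Figure D1:**
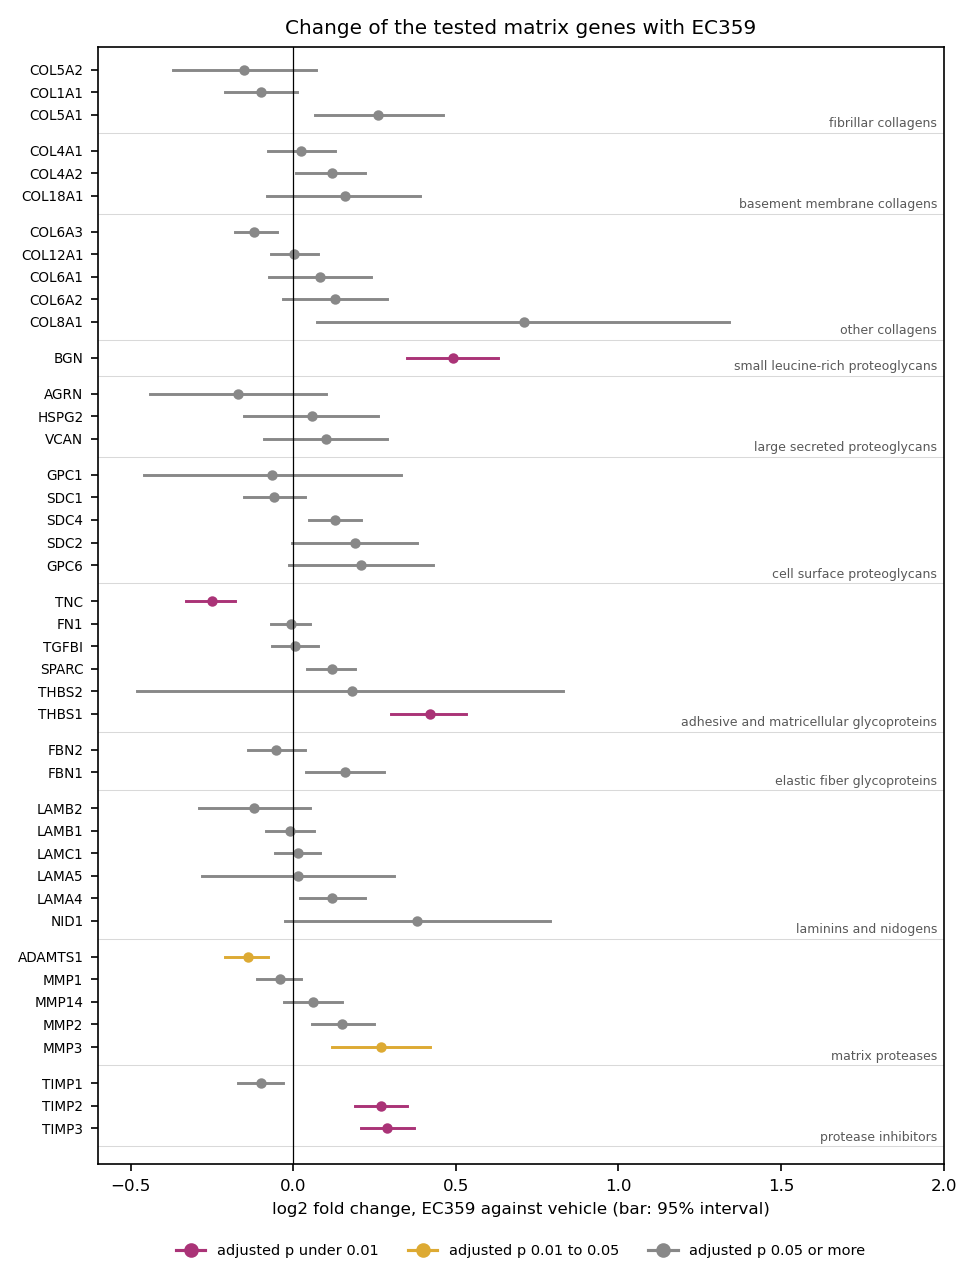
Log2 fold change of EC359 against vehicle (x axis) for the 42 tested matrix genes (rows, grouped by role), with the 95% interval of each as a bar and the adjusted p as the color. BGN, THBS1, TIMP2 and TIMP3 lie to the right of 0 and TNC to the left with an adjusted p under 0.01, and COL8A1 has the highest value, 0.71, with an interval from 0.074 to 1.34.

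Levels differed far more between the matrix genes than between the treatments. MMP1, interstitial collagenase, stood above all others, with an RPKM of 6377 and 6113 in vehicle and 6191 and 5941 in EC359. It held 56.3% of all counts on the 50 genes. TIMP1, an inhibitor of that protease family, was next per length, with a mean RPKM of 385 ± 1.91 (SD, n = 2) in vehicle. FN1, which encodes fibronectin, followed with 272 ± 1.89 and held 10.6% of the matrix counts. COL6A2 came next at 133 ± 17.8 and ADAMTS1 at 117 ± 0.929, which do not differ beyond the spread of COL6A2. TGFBI and SDC1 followed at 108 ± 0.415 and 101 ± 6.13. The 50 genes together took 2.15% ± 0.014 of all counts in vehicle and 2.16% ± 0.0252 in EC359, a difference within the replicate spread. Without MMP1 the shares were 0.931% ± 0.0224 and 0.951% ± 0.00659. Among the 11 role groups, the share differed most, relative to vehicle, in 2 groups. The TIMPs took 0.067% ± 0.000268 of counts in vehicle and 0.0744% ± 0.000787 in EC359. The small leucine-rich proteoglycans, carried by BGN, took 0.00293% ± 0.000149 in vehicle and 0.00417% ± 4.17e-05 in EC359.

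**Figure D2:**
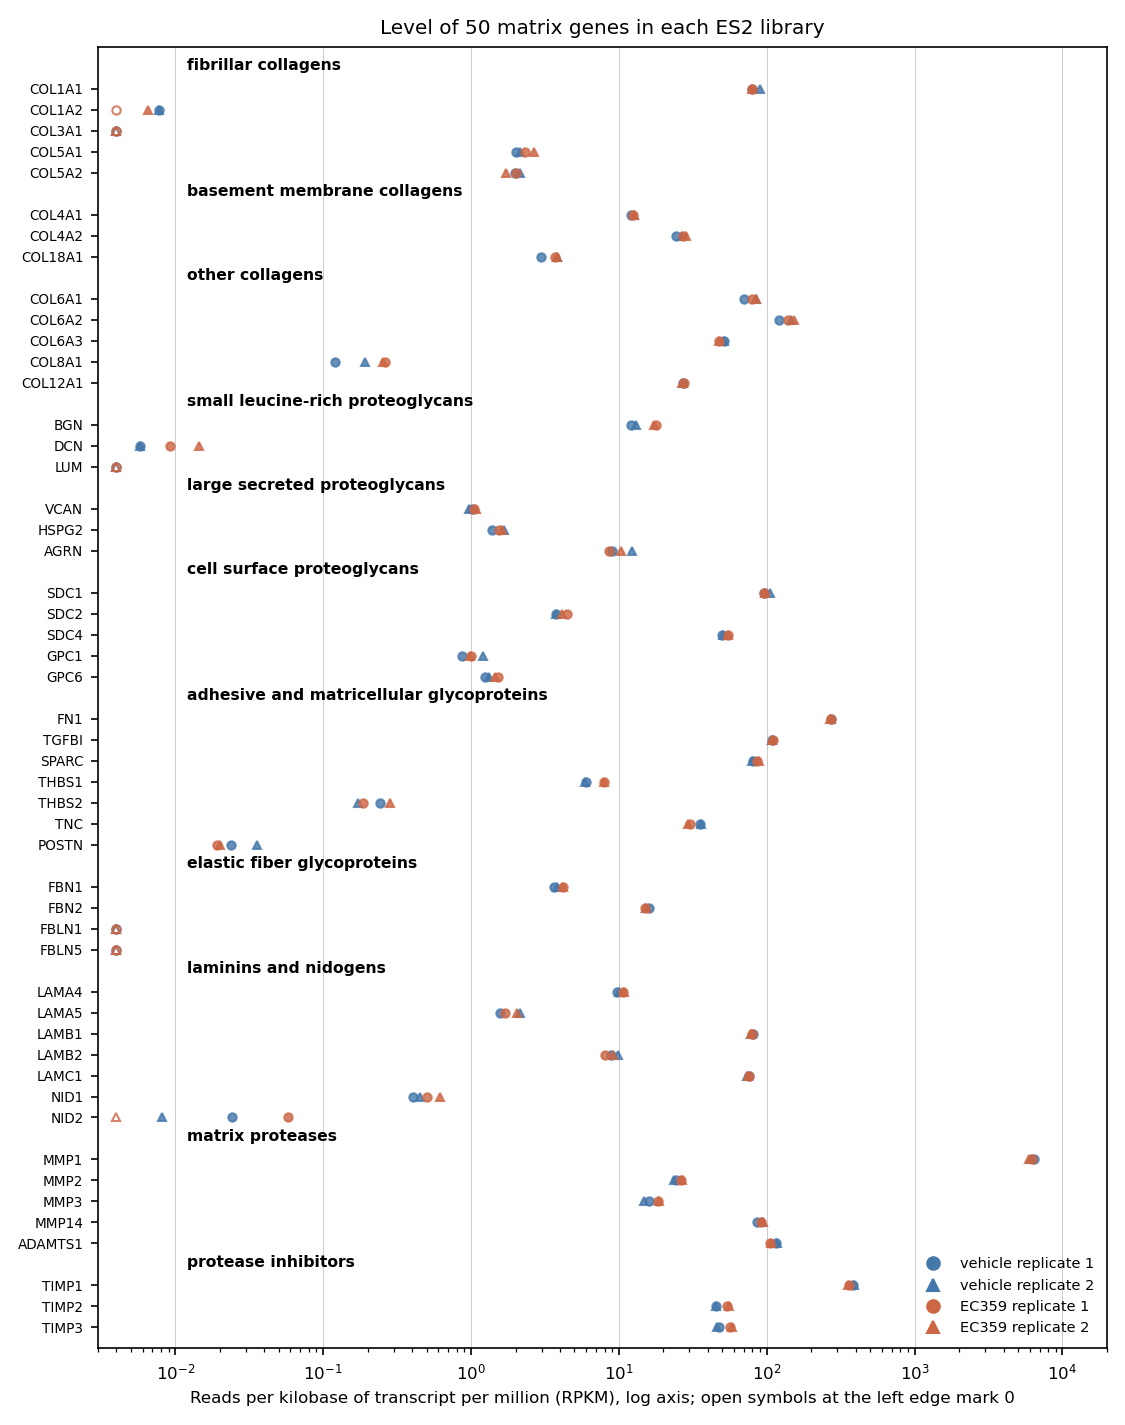
RPKM on a log axis (x axis) of each of the 50 matrix genes (rows, grouped by role) in each of the 4 libraries, with color for treatment and shape for replicate. Levels run from 0 for COL3A1, LUM, FBLN1 and FBLN5, drawn as open symbols, to 6377 for MMP1 in vehicle replicate 1, and the libraries of a gene mostly coincide on this scale.

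BGN encodes biglycan, a small leucine-rich proteoglycan that binds collagen fibrils. The gene lies on chromosome X from 152760438 to 152775004 (GRCh37, plus strand, 8 exons in the transcript used). BGN had 801 and 861 normalized counts in the vehicle libraries, and 1177 and 1155 in the EC359 libraries. Both EC359 libraries lay above both vehicle libraries, and the groups were apart by far more than either replicate gap. The log2 fold change of BGN was 0.49 ± 0.063 (SE, 95% interval 0.35 to 0.63, adjusted p = 0.00333, edgeR), a rise of 40.3%. Without EC359 replicate 1 the adjusted p was 0.275 and without EC359 replicate 2 it was 0.242, with log2 fold changes of 0.47 and 0.50. The other members of this family were close to absent. DCN, which encodes decorin, had 1 count in each vehicle library and 2 and 3 counts in the EC359 libraries, and LUM, which encodes lumican, had none. BGN was thus nearly the whole of its group at the level of RNA.

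The stretch of 250 bases before the start of each called gene is shown for the 4 called genes that the RefSeq table of promoters holds (GRCh38.p14), because their messages moved with EC359. Each line gives the strand of the gene 5′ to 3′, and capitals mark GGGCGG, the core of the GC box bound by Sp1, on either strand. In THBS1 capitals also mark TTCNNNGAA, the palindrome read by STAT proteins, which does not overlap the GC boxes. The BGN stretch is at chrX:153494730-153494979 (plus strand), THBS1 at chr15:39580829-39581078 (plus strand), TIMP3 at chr22:32801455-32801704 (plus strand) and TNC at chr9:115118158-115118407 (minus strand).
BGN: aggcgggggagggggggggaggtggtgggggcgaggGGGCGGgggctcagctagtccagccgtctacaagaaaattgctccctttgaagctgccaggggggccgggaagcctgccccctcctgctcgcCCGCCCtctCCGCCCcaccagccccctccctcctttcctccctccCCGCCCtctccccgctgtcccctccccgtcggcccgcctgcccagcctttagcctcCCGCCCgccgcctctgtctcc
THBS1: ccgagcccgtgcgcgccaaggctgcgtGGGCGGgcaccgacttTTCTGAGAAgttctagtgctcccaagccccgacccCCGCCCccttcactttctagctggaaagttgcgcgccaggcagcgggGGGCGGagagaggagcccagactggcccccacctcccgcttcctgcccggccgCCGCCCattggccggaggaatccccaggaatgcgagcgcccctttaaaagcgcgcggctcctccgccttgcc
TIMP3: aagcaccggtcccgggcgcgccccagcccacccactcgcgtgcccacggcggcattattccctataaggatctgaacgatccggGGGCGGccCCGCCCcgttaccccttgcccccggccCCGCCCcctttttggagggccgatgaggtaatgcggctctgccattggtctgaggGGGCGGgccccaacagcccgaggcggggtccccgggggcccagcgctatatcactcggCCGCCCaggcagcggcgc
TNC: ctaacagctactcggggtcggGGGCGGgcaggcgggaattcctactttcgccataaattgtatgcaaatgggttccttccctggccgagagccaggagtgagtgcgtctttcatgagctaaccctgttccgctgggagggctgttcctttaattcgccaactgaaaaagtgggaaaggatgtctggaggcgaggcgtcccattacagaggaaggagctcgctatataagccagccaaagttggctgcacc
GC boxes numbered 5 in BGN, 4 in THBS1, 5 in TIMP3 and 1 in TNC. Over the matrix genes, 35 of 50 had at least 1 such stretch and 39 stretches were searched. GGGCGG was present in 32 of these 39, or 82.1%, against 42.6% of all 35116 stretches in the table and 62.9% of the 13030 stretches of tested genes. TTCNNNGAA was present in 3 of 39, those of THBS1, LAMB2 and POSTN. This was 7.69%, against 6.57% of all stretches and 5.59% of those of tested genes. CCAAT was found in 28.2%, against 32% of all stretches and 33.4% of those of tested genes. TGANTCA, the AP-1 site, was found in 2.56%, which was POSTN alone, against 6.57% and 4.55%. A match describes the letters in this window and nothing about binding.

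Among the adhesive and matricellular glycoproteins, THBS1 rose and TNC fell, while FN1, TGFBI and THBS2 did not pass the test. THBS1 encodes thrombospondin-1, a secreted protein that activates latent TGF-beta and restrains vessel growth. It lies on chromosome 15 from 39873280 to 39891667 (plus strand, 22 exons). THBS1 had 1318 and 1292 normalized counts in the vehicle libraries, and 1739 and 1748 in the EC359 libraries. The groups did not overlap, and the replicates of each treatment lay close together. For THBS1 the log2 fold change was 0.42 ± 0.051 (SE, 95% interval 0.30 to 0.53, adjusted p = 0.00275, edgeR), a rise of 33.6%. Its exons share 448 bases with FSIP1 on the other strand, and those of TNC share 129 bases with DEC1. The strand setting of the counting is not given in the sources used here, so without strand the reads of these stretches cannot be told apart. TNC encodes tenascin-C, an oncofetal glycoprotein that weakens the adhesion of cells to fibronectin. It lies on chromosome 9 from 117781854 to 117880486 (minus strand, 28 exons). TNC had 8461 and 8575 normalized counts in vehicle and 7256 and 7045 in EC359. Both EC359 libraries lay below both vehicle libraries. Its log2 fold change was -0.25 ± 0.033 (SE, 95% interval -0.33 to -0.18, adjusted p = 0.00371). Per length of transcript, the ratio of THBS1 to TNC was 0.17 and 0.164 in vehicle and 0.262 and 0.271 in EC359. Without EC359 replicate 1 the adjusted p of both genes was 0.275, and without EC359 replicate 2 it was 0.242 for THBS1 and 0.285 for TNC, with the signs kept.

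FN1 encodes fibronectin, which links integrins to collagen and was the most abundant glycoprotein. It had 64079.6 and 64711 normalized counts in vehicle and 64667 and 63540.0 in EC359. These values overlapped, and the log2 fold change was -0.0065 (95% interval -0.067 to 0.053, adjusted p = 0.923), which bounds any change of FN1 to a few percent. TGFBI, a secreted protein induced by TGF-beta, had a log2 fold change of 0.0064 (95% interval -0.065 to 0.077). SPARC, a collagen-binding matricellular protein, had 7895 and 7755 normalized counts in vehicle and 8364 and 8629 in EC359. Its groups were apart upward, but its adjusted p was 0.075. THBS2, a close relative of THBS1, was scarce, with 25 to 49 raw counts per library, and 37.2% of the 50-base windows of its transcript also occur in transcripts of other genes, so its value is uncertain. POSTN, which encodes periostin, had 2 or 3 raw counts in each library.

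TIMP2 and TIMP3 rose, and TIMP1 lay lower with EC359 without passing the threshold. TIMP2 blocks most MMPs and takes part in activating pro-MMP2 at the cell surface. It lies on chromosome 17 from 76849059 to 76921469 (minus strand, 5 exons). TIMP2 had 4646 and 4657 normalized counts in the vehicle libraries and 5537 and 5704 in the EC359 libraries. The vehicle libraries were nearly equal, and both EC359 libraries lay well above them. TIMP2 had a log2 fold change of 0.27 ± 0.035 (SE, 95% interval 0.19 to 0.35, adjusted p = 0.00337), a rise of 20.8%. TIMP3 stays bound to the matrix and also inhibits ADAM and ADAMTS proteases. It lies on chromosome 22 from 33197691 to 33259028 (plus strand, 5 exons), and its upstream stretch was shown with the others. TIMP3 had 6164 and 5985 normalized counts in vehicle and 7353 and 7504 in EC359. Its groups did not overlap either. TIMP3 had a log2 fold change of 0.29 ± 0.034 (SE, 95% interval 0.21 to 0.37, adjusted p = 0.00236, edgeR), the lowest p among the matrix genes. The calls of TIMP2 and TIMP3 rested on both EC359 libraries. Without EC359 replicate 1 the log2 fold change was 0.29 for TIMP2 and 0.30 for TIMP3, and without EC359 replicate 2 it was 0.25 and 0.28. TIMP1, the soluble inhibitor that was the most abundant of the family, had 8314 and 8372 normalized counts in vehicle and 7819.6 and 7729.7 in EC359. Its EC359 libraries lay below both vehicle libraries, in the opposite direction to TIMP2 and TIMP3. The log2 fold change of TIMP1 was -0.10 ± 0.032 (SE, adjusted p = 0.0982). Per length of transcript, the ratio of TIMP2 to TIMP1 was 0.118 and 0.117 in vehicle and 0.149 and 0.155 in EC359, and that of TIMP3 to TIMP1 was 0.124 and 0.12 in vehicle and 0.157 and 0.162 in EC359. TIMP1 remained the most abundant of the 3 in every library.

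**Figure D3:**
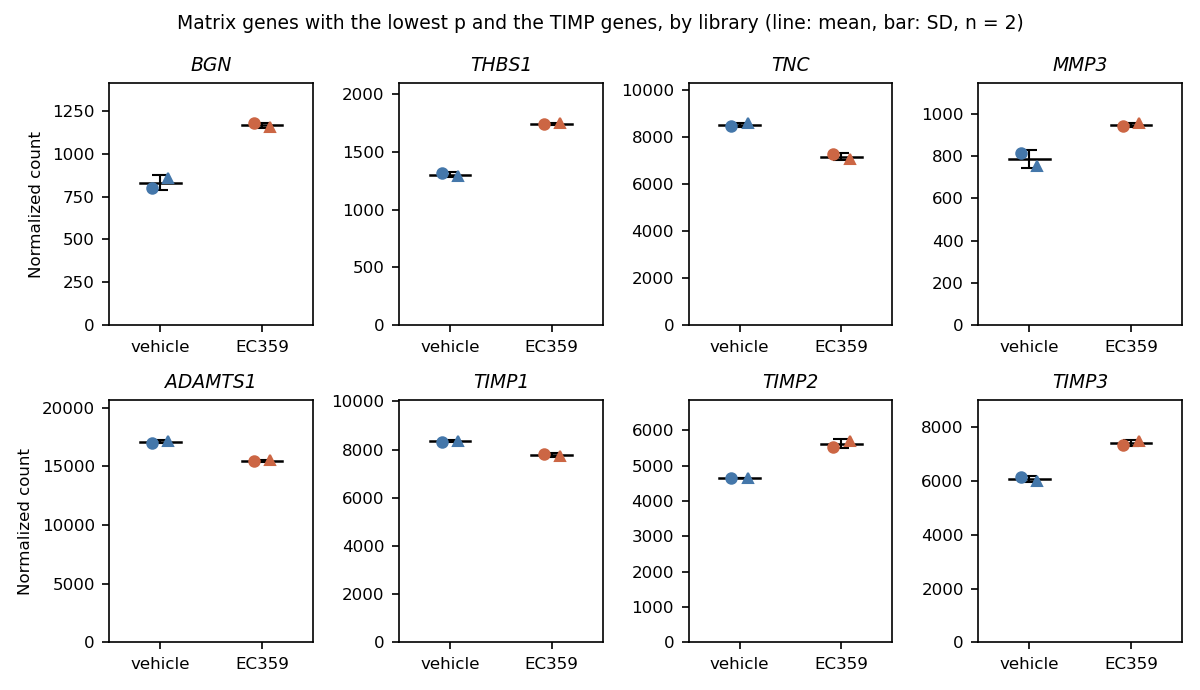
Normalized counts (y axes, from 0) of the 5 called matrix genes, of MMP3 and ADAMTS1, and of TIMP1 in vehicle and EC359 libraries; circles are replicate 1, triangles replicate 2, lines the mean and bars the SD (n = 2). In all 8 genes the EC359 libraries lie on 1 side of both vehicle libraries, above in BGN, THBS1, MMP3, TIMP2 and TIMP3 and below in TNC, ADAMTS1 and TIMP1. The genes were picked for a low p or as TIMPs, which favors such separation, and the groups did not overlap in 51.5% of all tested genes.

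With all 4 libraries and no block or length or GC correction, edgeR called no protease at an adjusted p under 0.01. Of the 5, 3 had an unadjusted p under 0.05, against 21.6% of all genes. MMP3 and ADAMTS1 passed the looser threshold of 0.05 in opposite directions, a threshold that 4.32% of all genes passed. With each library's GC trend removed, edgeR called MMP3 (adjusted p = 0.00401), ADAMTS1 (4.2e-05) and MMP1 (0.0013). ADAMTS1 was also called by edgeR with the length trend removed (adjusted p = 0.00724). MMP3, which encodes stromelysin-1 and can activate other MMPs, had 816 and 753 normalized counts in vehicle and 940.2 and 954 in EC359. Its EC359 libraries lay above both vehicle libraries, by a log2 fold change of 0.27 ± 0.066 (SE, adjusted p = 0.0475). ADAMTS1 cleaves versican and other large proteoglycans. It had 16993 and 17185 normalized counts in vehicle and 15416 and 15541 in EC359, a log2 fold change of -0.14 ± 0.029 (SE, adjusted p = 0.0251). Its EC359 libraries lay below both vehicle libraries. Without EC359 replicate 1 the adjusted p was 0.394 for MMP3 and 0.395 for ADAMTS1, and without EC359 replicate 2 it was 0.409 and 0.361. For MMP3 it was 0.0964 without vehicle replicate 2, 0.107 with DESeq2, 0.0796 without a filter and 0.0503 with at least 10 counts in every library. MMP1, the collagenase that opens fibrillar collagen, had 354624 and 339917 normalized counts in vehicle and 344253 and 330350.0 in EC359. These libraries overlapped, and the log2 fold change was -0.042 (95% interval -0.11 to 0.025, adjusted p = 0.461). MMP1 and MMP3 are neighbors in the MMP cluster of chromosome 11, on the same strand and 37640 bases apart, and had a mean RPKM of 6245 and 15.3 in vehicle. MMP2, the gelatinase that degrades type IV collagen, had 2411 and 2317 normalized counts in vehicle and 2610.1 and 2654 in EC359 (log2 fold change 0.15, adjusted p = 0.0756). MMP14, the membrane-bound activator of pro-MMP2, had overlapping groups (log2 fold change 0.06, adjusted p = 0.423).

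With all 4 libraries, TMM factors and no block or length or GC correction, edgeR called no collagen chain at either threshold. Of the 3 tested fibrillar chains, only COL5A1 had an unadjusted p under 0.05, against 21.6% of all genes. COL1A1, the alpha-1 chain of type I collagen, had 13331 and 15117 normalized counts in vehicle and 13235 and 13335 in EC359. EC359 replicate 2 lay just above vehicle replicate 1, so the groups overlapped, and the log2 fold change was -0.10 (95% interval -0.21 to 0.012, adjusted p = 0.281). Vehicle replicate 2 stood above the other 3 libraries. Without vehicle replicate 1 COL1A1 would have been called (log2 fold change -0.19, adjusted p = 0.0016), and without vehicle replicate 2 the value was -0.01 (adjusted p = 0.903). With each library's GC trend removed it was called (-0.14, adjusted p = 0.000376). COL1A2, the partner chain of the type I heterotrimer, had 1 and 1 raw counts in vehicle and 0 and 1 in EC359. COL3A1, the chain of type III collagen, had none. Per length, COL1A1 was 10286 to 12248 times as abundant as COL1A2 in the 3 libraries with a COL1A2 read, a ratio that rests on 1 read in each. COL5A1, the chain of type V collagen that starts fibrils, had 476 and 512 normalized counts in vehicle and 553 and 634 in EC359 (log2 fold change 0.26 ± 0.088, adjusted p = 0.115). COL5A2, its partner, had 382 and 415 in vehicle and 386 and 333 in EC359 (log2 fold change -0.15 ± 0.10, adjusted p = 0.419). The per-length ratio of COL5A1 to COL5A2 was 1.01 and 0.998 in vehicle and 1.16 and 1.54 in EC359, so it was higher in both EC359 libraries, which also differed from each other.

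The basement membrane chains COL4A1 and COL4A2 form the common type IV trimer and lie head to head on chromosome 13. In RefSeq, 126 bases separate their starts, at chr13:110307158-110307283 (GRCh38.p14, shown on the strand of COL4A2, with the GC box in capitals), a stretch given because both genes start from it.
COL4A1 and COL4A2: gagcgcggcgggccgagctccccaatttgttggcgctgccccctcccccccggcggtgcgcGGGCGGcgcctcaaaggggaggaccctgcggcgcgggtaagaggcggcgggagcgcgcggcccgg
COL4A1 had 2221 and 2318 normalized counts in vehicle and 2293 and 2322 in EC359. COL4A2 had 4444 and 4886 in vehicle and 4913 and 5199 in EC359. The EC359 libraries of COL4A2 lay above both vehicle libraries, at a log2 fold change of 0.12 ± 0.049 (SE, adjusted p = 0.205), and those of COL4A1 overlapped, with 0.024 ± 0.046 (SE, adjusted p = 0.81). The per-length ratio of COL4A2 to COL4A1 was 2.03 and 2.14 in vehicle and 2.17 and 2.27 in EC359. Of the 3 basement membrane chains, COL4A2 alone had an unadjusted p under 0.05, against 21.6% of all genes. COL18A1, the source of endostatin, had a log2 fold change of 0.16 (adjusted p = 0.429), and 25.1% of its 50-base windows also occur in transcripts of other genes.

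Type VI collagen is a beaded filament made from the chains of COL6A1, COL6A2 and COL6A3. Per length, COL6A2 was the most abundant collagen message, and COL6A1, with a mean RPKM of 77.8 ± 10.5 in vehicle, did not differ from COL1A1, with 85.2 ± 7.57, beyond the replicate spread. Of the 5 tested chains outside the fibrillar and basement membrane groups, 2 had an unadjusted p under 0.05, against 21.6% of all genes. These were COL6A3 and COL8A1. COL6A3 had 15202 and 15344 normalized counts in vehicle and 14161 and 14022 in EC359. Its replicates nearly coincided and its EC359 libraries lay below both vehicle libraries. The log2 fold change of COL6A3 was -0.12 ± 0.03 (SE, 95% interval -0.18 to -0.05), and its adjusted p of 0.0557 missed both thresholds. It was 0.0466 in limma voom, 0.0163 with the length trend removed and 0.00147 with the GC trend removed, and 0.0359 and 0.0387 without either vehicle library. COL6A1 and COL6A2, which lie 93061 bases apart on chromosome 21, had log2 fold changes of 0.084 and 0.13 with overlapping groups. Their ratio to each other varied only from 1.71 to 1.8 over the 4 libraries. COL6A3 per COL6A1 was 0.728 and 0.606 in vehicle and 0.596 and 0.556 in EC359, where the gap between the vehicle libraries was larger than that between the treatments. COL8A1, a short-chain collagen, had the highest fold change of the matrix genes but few reads, with 17 and 27 raw counts in vehicle and 46 and 42 in EC359. Its log2 fold change was 0.71 ± 0.28 (SE, adjusted p = 0.185). COL12A1, a fibril-associated collagen, had a log2 fold change of 0.0035 (95% interval -0.069 to 0.076).

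**Figure D4:**
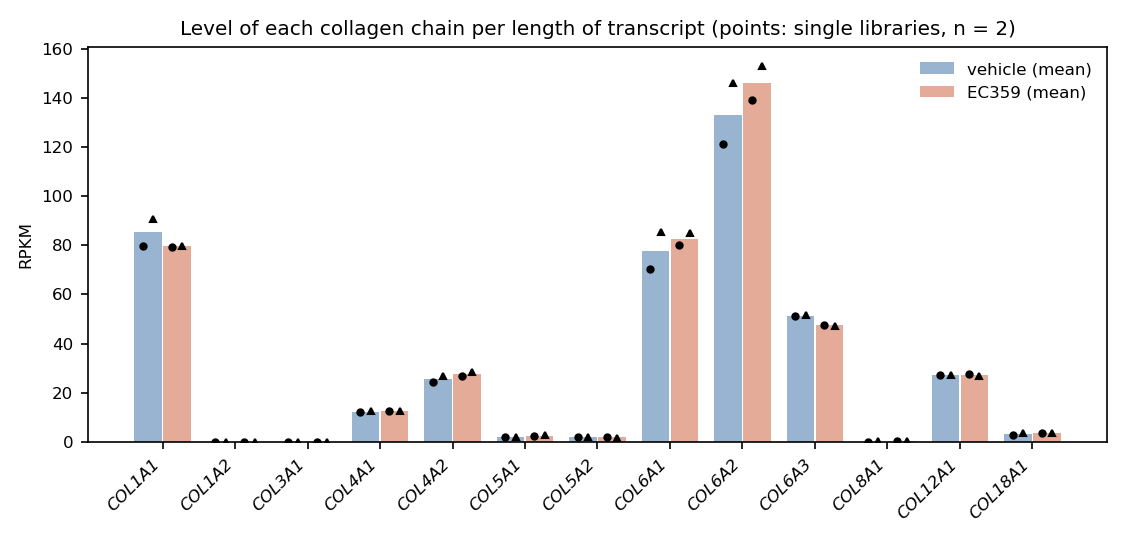
RPKM (y axis, from 0) of the 13 collagen chains; bars are the mean of 2 libraries per treatment and points the single libraries (circle, replicate 1; triangle, replicate 2). COL6A2, COL1A1 and COL6A1 are highest, COL1A2 and COL3A1 are at or near 0 beside COL1A1, and the points of the treatments overlap or lie close in most chains.

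With all 4 libraries, TMM factors and no block or length or GC correction, edgeR called no proteoglycan other than BGN at either threshold. Of the 3 large secreted and 5 cell surface proteoglycans, only SDC4 had an unadjusted p under 0.05, against 21.6% of all genes. AGRN encodes agrin, a heparan sulfate proteoglycan of basement membranes. It had 1864 and 2525 normalized counts in vehicle and 1772 and 2141 in EC359. Its replicates differed more than the treatments, and its log2 fold change of -0.17 (adjusted p = 0.469) turned positive, to 0.063, without vehicle replicate 2 and reached -0.37 (adjusted p = 0.00238) without vehicle replicate 1. With each library's GC trend removed it was -0.32 (adjusted p = 3.37e-05). HSPG2, which encodes perlecan, had a log2 fold change of 0.057 (adjusted p = 0.77), and VCAN, which encodes versican, had 0.10 (adjusted p = 0.535). SDC1, the epithelial syndecan, was the most abundant proteoglycan. It had 8614 and 9388 normalized counts in vehicle and 8583 and 8708 in EC359, a log2 fold change of -0.058 (adjusted p = 0.459). SDC4, the syndecan of focal adhesions, had 3649.9 and 3729 in vehicle and 4055 and 4021 in EC359. Its EC359 libraries lay above both vehicle libraries, and its log2 fold change was 0.13 ± 0.037 (SE, adjusted p = 0.0756). The adjusted p of SDC4 was 0.0412 with total counts only and 0.00768 with the GC trend removed (edgeR). SDC2 and GPC6, other cell surface heparan sulfate proteoglycans, also had groups apart upward, with log2 fold changes of 0.19 (adjusted p = 0.237) and 0.21 (adjusted p = 0.257). GPC1 had 82 to 118 raw counts per library and overlapping groups.

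Of the 6 tested laminin and nidogen genes, which build the basement membrane network, none was called by edgeR. Only LAMA4 had an unadjusted p under 0.05, against 21.6% of all genes. LAMC1, the gamma-1 chain shared by most laminins, had 16969 and 16457 normalized counts in vehicle and 17093 and 16653 in EC359. Its log2 fold change was 0.014 (95% interval -0.057 to 0.084, adjusted p = 0.848). LAMB1, the chain that pairs with it, had -0.0099 (95% interval -0.084 to 0.064). The per-length ratio of LAMC1 to LAMB1 was 0.939 to 0.958 over the 4 libraries, close to equal. LAMA4, an alpha chain of mesenchymal and vessel laminins, had 1992 and 2037 normalized counts in vehicle and 2188 and 2194 in EC359. Its groups were apart upward, at a log2 fold change of 0.12 ± 0.045 (SE, adjusted p = 0.156). LAMA5 and LAMB2 overlapped, with log2 fold changes of 0.015 and -0.12. NID1, which encodes the linker nidogen-1, had 60 to 108 raw counts and a log2 fold change of 0.38 ± 0.18 (SE, adjusted p = 0.26), while its relative NID2 had 3, 1, 9 and 0 raw counts. Of the 2 tested elastic fiber genes, none was called and FBN1 had an unadjusted p under 0.05, against the same 21.6%. FBN2, the fetal fibrillin, had 4975 and 4678 normalized counts in vehicle and 4631 and 4673 in EC359 (log2 fold change -0.053, adjusted p = 0.48). FBN1, the adult fibrillin, had 1199 and 1258 in vehicle and 1375 and 1373 in EC359 (log2 fold change 0.16 ± 0.056, adjusted p = 0.127). In FBN1 the EC359 libraries lay above both vehicle libraries. In FBN2 they lay below, but only just, at 4673 against 4678 for the nearest libraries. The vehicle replicate gap of FBN2 (-0.089 on the log2 scale) was larger in size than its treatment difference. Over all tested genes, 51.5% had groups that did not overlap. The fibulins FBLN1 and FBLN5 had no reads.

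The replicates themselves differed in a way that followed base composition. Across the 42 tested matrix genes, the log2 ratio of vehicle replicate 2 to vehicle replicate 1 was higher at a higher GC content of the transcript, with a Spearman's rho of 0.64, and that of EC359 replicate 2 to EC359 replicate 1 had a rho of 0.524. Over 12202 tested genes with a known GC content the values were 0.46 and 0.343. These correlations are across genes of shared libraries and are given as a description. The tested matrix genes were GC-rich, with a median of 52% against 47.5%. The GC-rich members AGRN, LAMA5, GPC1, COL18A1, COL6A1, HSPG2 and COL6A2 were higher in vehicle replicate 2 than in replicate 1, by 0.27 to 0.46 on the log2 scale. Among called genes, BGN had a GC content of 60.9% and the other 4 between 45.7% and 53.7%, and their replicate gaps were at most 0.10 on this scale. In 20 of the 42 genes the treatment difference was larger than both replicate gaps, against 39.3% of all tested genes. With each library's trend against GC content removed, 14 of 42 matrix genes were called, the 5 genes among them, against 10.5% of all genes in the same fit, and the median log2 fold change was 0.012 over the matrix genes and -0.025 over all genes.

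**Figure D5:**
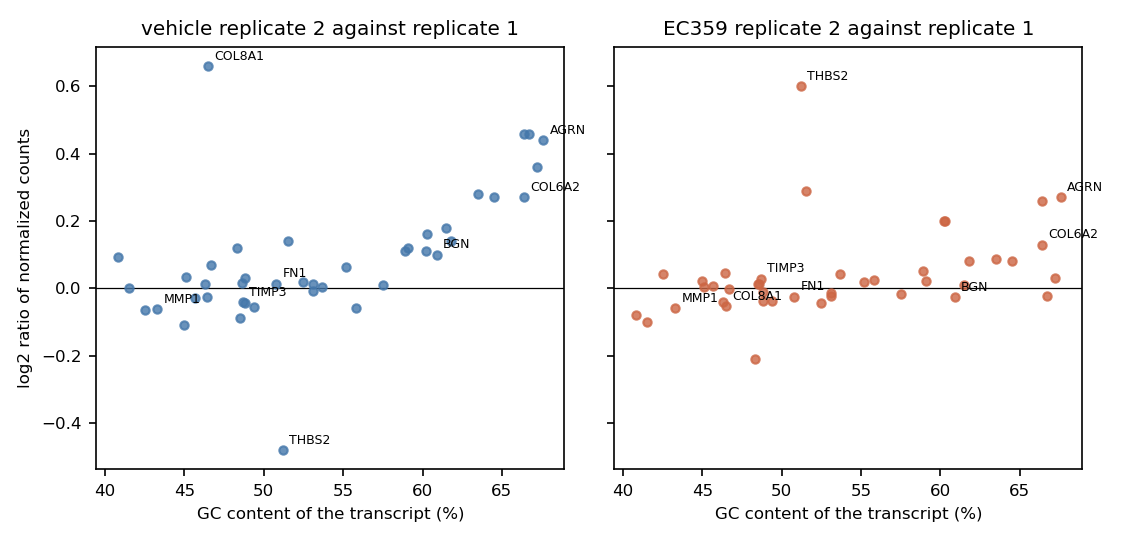
Log2 ratio of normalized counts between replicate 2 and replicate 1 (y axis) against the GC content of the transcript in percent (x axis) for the 42 tested matrix genes, for vehicle on the left and EC359 on the right; each point is a gene and the line marks equal counts. The ratio is mostly higher in GC-rich genes such as AGRN (0.44 in vehicle and 0.27 in EC359), and scarce genes stand apart, COL8A1 in vehicle and THBS2 in both treatments.

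Genes that make, modify or read the matrix were then described from lists written from general knowledge, with earlier results of these data known. Of 30 tested genes for collagen maturation and export, 2 fell and none rose at an adjusted p under 0.01, against 0.795% and 0.299% of all genes, and at the looser threshold 5 were lower and 1 higher, against 2.64% and 1.68% of all genes. DESeq2 called 5 genes of this list and limma voom 2. The list median was -0.037. P4HA1, a catalytic subunit of the prolyl hydroxylase that stabilizes the collagen helix, had 5360.4 and 5312 normalized counts in vehicle and 4338 and 4272 in EC359 (log2 fold change -0.31 ± 0.035, adjusted p = 0.00229, edgeR). PPIB, a prolyl isomerase of collagen folding, had 11673 and 11589 in vehicle and 9907 and 9827 in EC359 (log2 fold change -0.24 ± 0.031, adjusted p = 0.00333). In both genes the EC359 libraries lay below both vehicle libraries. ADAMTS2, which removes the amino-terminal propeptide of procollagen, had a log2 fold change of -0.35 (adjusted p = 0.0137). The others lower at the looser threshold were PLOD1, a lysyl hydroxylase (-0.18, adjusted p = 0.0172), and P4HB, the partner subunit of P4HA1 (-0.17, adjusted p = 0.0225). GLT25D2, a collagen galactosyltransferase, was higher (0.57, adjusted p = 0.0477), and these last 3 genes were named after their values were seen. SERPINH1, the collagen chaperone HSP47, and LOX, the lysyl oxidase that crosslinks collagen, also named after their values were seen, had log2 fold changes of 0.019 and 0.013 (adjusted p = 0.811 and 0.848). The calls of P4HA1 and PPIB, and the passing of the looser threshold by ADAMTS2, rested on both EC359 libraries. Without EC359 replicate 1 the log2 fold change was -0.32 for P4HA1 and -0.24 for PPIB, and without EC359 replicate 2 it was -0.30 and -0.23. For ADAMTS2 these values were -0.33 and -0.37.

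Of 33 tested enzymes of glycosaminoglycan synthesis, none was called by edgeR, 8 had an unadjusted p under 0.05, near the 21.6% of all genes, and 1 passed the looser threshold, or 3.03% against 4.32%. This was CSGALNACT2, which starts chondroitin sulfate chains, at a log2 fold change of 0.25 (adjusted p = 0.0386, and 0.0835 with DESeq2, 0.0629 without a filter and 0.0516 with the length trend removed). Of 22 tested matrix receptors, none was called, 10 had an unadjusted p under 0.05, against 21.6% of all genes, and 3 were higher and 1 lower at the looser threshold, against 1.68% and 2.64%. ITGB8 encodes an integrin subunit that pairs with the product of ITGAV and binds latent TGF-beta. It had 887 and 901 normalized counts in vehicle and 704 and 693 in EC359, a log2 fold change of -0.36 ± 0.063 (SE, adjusted p = 0.0137). ITGB5 and ITGAV, which form a vitronectin receptor, had log2 fold changes of 0.19 (adjusted p = 0.0179) and 0.21 (adjusted p = 0.0262, and 0.0536 without a filter for ITGAV). ITGA11, a collagen receptor subunit named after its values were seen, had 4 and 4 raw counts in vehicle and 28 and 16 in EC359 (adjusted p = 0.0414). Without either EC359 library, the adjusted p of CSGALNACT2, ITGB8, ITGB5 and ITGAV lay between 0.307 and 0.408. No gene of either list was called by limma voom or by DESeq2, which gave no adjusted p for 10 and 6 of them, and the list medians were 0.084 and 0.071.

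Matrix genes outside the 50 passed the looser threshold in both directions, and none was called by edgeR or limma voom at an adjusted p under 0.01. DESeq2 called none either but gave no adjusted p for 4, 19 and 13 genes of the 3 lists, COL16A1, SPOCK1, LAMA3 and MMP17 among them. An unadjusted p under 0.05 was found in 21.6% of all genes, and 4.32% passed the looser threshold. Of 9 further collagens that were tested, 3 had an unadjusted p under 0.05. COL16A1, a fibril-associated chain, was higher (log2 fold change 0.40, adjusted p = 0.0256), and COL27A1, a fibrillar chain of cartilage, was lower (-0.32, adjusted p = 0.0257). Of 33 further glycoproteins and proteoglycans, 11 had an unadjusted p under 0.05, and SPOCK1, a testican proteoglycan, EFEMP1, also called fibulin-3, and LAMA3, a laminin chain of epithelia, were higher at the looser threshold, with log2 fold changes of 0.46 (adjusted p = 0.0237), 0.25 (adjusted p = 0.0256) and 0.40 (adjusted p = 0.0364). Of 25 further proteases and inhibitors, 6 had an unadjusted p under 0.05. MMP17, a membrane-anchored MMP, had 34 and 44 raw counts in vehicle and 89 and 103 in EC359, a log2 fold change of 1.01 ± 0.22 (SE, adjusted p = 0.0289). ADAMTS6 was also higher (0.19, adjusted p = 0.0295), and CTSK, which encodes the collagen-degrading cathepsin K, was lower (-0.25, adjusted p = 0.0344). The medians of these 3 lists were -0.03, 0.017 and 0.048. Without either EC359 library, the adjusted p of these 8 genes lay between 0.297 and 0.407, and that of MMP17 was 0.0541 without vehicle replicate 1. Without a filter, EFEMP1, LAMA3, ADAMTS6 and CTSK had an adjusted p of 0.0506 to 0.0543, CTSK had 0.0747 with DESeq2, and ADAMTS6 had 0.0632 with the length trend removed.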

How the data were processed

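RNA of ES2 cells was measured after 12 h of EC359 treatment (10 nM) or vehicle, in 2 libraries per treatment. Per the labels and methods, the authors demultiplexed single-end reads of 50 bases with CASAVA 1.8.2, aligned them to UCSC hg19 with TopHat2 2.0.8b and counted them on RefSeq genes with HTSeq. The deposited values are these raw counts, 1 per gene symbol. Rows that name no gene stayed out of the analysis. Reads on no gene were 10.95% to 12.05%, and ambiguous reads 0.8518% to 0.8794%, of reads with a single alignment.

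With edgeR 4.0.16 in R 4.3.3, genes were kept by filterByExpr (min.count 10, min.total.count 15), scaled with TMM factors and tested with the quasi-likelihood test without a replicate block. The biological coefficient of variation was 3.5% and the prior degrees of freedom 8.28. Standard errors were derived from the log2 fold change and F, and intervals are 95%. Each library was treated as 1 replicate. Replicates differed beyond sampling noise (3.69 in vehicle and 2.65 in EC359 as chi-square over its degrees of freedom). That spread does not show whether they came from separate cultures. Places, lengths and GC content came from GENCODE lifted to GRCh37, which matched 91.8% of symbols and all 50 matrix genes. Of the 50 genes, 47 had fewer than 10% of their 50-base windows in transcripts of other genes. Upstream sequences came from RefSeq on GRCh38.p14.

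The 50 genes, the lists and the tests were chosen with earlier results of these data known. Full statistics were given to genes past an adjusted p of 0.01 or 0.05 and to those with the lowest p and the highest count in each role group. By rule, up to 3 genes were named from each list of matrix-related genes outside the 50. Further genes of these lists are marked above as named after their values were seen. The tests were checked on simulated counts. Alternatives were RLE factors, total counts only, DESeq2 1.42.0, voom of limma 3.58.1, unfiltered counts, a minimum of 10 counts per library, an adjusted p under 0.05, the replicate number as a block, transcript length or GC trends taken out per library, and leaving out each library in turn.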

Additional observations from a re-analysis of the deposited data

How the results depend on the processing

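With all 4 libraries, the 5 called matrix genes were called by every alternative fit tried, 9 in number, in the same direction. The count of called matrix genes rose from 5 to 18 (11 higher, 7 lower) with a replicate block and to 14 (8 higher, 6 lower) without each library's GC trend. Leaving out 1 library gave 0 to 8, with no call when either EC359 library was left out. Over all genes, the 139 calls became 230 with DESeq2, 61 without a filter, 1539 with a replicate block (692 higher, 847 lower), 212 without the length trend, 1331 without the GC trend (312 higher, 1019 lower) and 549 at an adjusted p under 0.05, and 0 to 539 with 1 library left out. Total counts only gave 52 higher and 68 lower in place of 38 and 101. The labels number replicates 1 and 2 in both treatments but name no shared batch. The deviations of the replicate 1 libraries from their treatment means had a correlation of 0.112 over the tested genes. With 2 libraries per treatment, replicate 2 mirrors replicate 1, so this is 1 comparison and does not settle whether same-numbered libraries are paired. The replicate gap rose with GC content in both treatments (rho 0.46 and 0.343 over 12202 genes). Results with the block are given here only. With it, COL1A1, COL5A1, COL4A2 and COL6A3 were called (adjusted p of 8.23e-05 to 0.00924, edgeR), as were MMP1, MMP3 and ADAMTS1. TIMP1 (adjusted p = 0.00252), SDC4 (0.00269) and AGRN (0.00668) were called with the block as well. The median log2 fold change of the matrix genes, 0.072, was 0.012 without the GC trend and 0.01 to 0.12 with 1 library left out. The matrix share of counts in vehicle, 2.15%, was 2.17% of the effective library size and 0.931% without MMP1, and in EC359, 2.16%, it was 0.951% without MMP1. The log2 fold change changed sign for FN1 with total counts only (0.017) and for LAMC1 without the length trend (-0.032). With 1 library left out it ranged from -0.37 to 0.063 for AGRN, from -0.02 to 0.0064 for FN1 and from -0.014 to 0.037 for LAMC1. The cause of these shifts was not tested. With 1 library left out, the lone library of a treatment was assumed to vary like the other treatment.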
